A study of Homo sapiens with 12 samples.

Results

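PINK1 and 8 proteins that tie damaged mitochondria to the autophagy machinery were examined in sorafenib-resistant and parental liver cancer cells. The members were the rows of the deposited tables whose symbol is PINK1, BNIP3, BNIP3L, FUNDC1, PHB2, OPTN, SQSTM1, TAX1BP1 or CALCOCO2, and each of these 9 genes was found once among 27249 genes with an Ensembl identifier (98711 features in all). They were selected on their FPKM in resistant and parental samples of these lines, known from an earlier look at the same values, so their levels and differences are described here and no p-value is given for them. Huh7 and HepG2 are human liver cancer lines, both labelled wild type. Resistant Huh7 and resistant HepG2 cells were labelled as treated with sorafenib, a kinase inhibitor used against liver cancer, for 8 months, starting from a dose of 10 μmol (the unit as the labels give it) that was raised stepwise. Parental Huh7 and parental HepG2 cells received no drug. There were 3 samples in each of these 4 groups, and the labels do not say whether they were separate cultures or separate derivations of resistance, so errors and p-values measure the spread between these samples only. Each resistant line is compared with its own parental line.

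Mitophagy is the removal of mitochondria by autophagy. PINK1 is a kinase that is imported into healthy mitochondria and degraded; on depolarised mitochondria it builds up on the outer membrane and phosphorylates ubiquitin. SQSTM1 (p62), OPTN, TAX1BP1 and CALCOCO2 (NDP52) are adaptors that bind ubiquitin on the cargo with one part and ATG8-family proteins on the growing autophagosome with another. BNIP3, BNIP3L (NIX), FUNDC1 and PHB2 are receptors that sit in a mitochondrial membrane and bind ATG8-family proteins directly, and BNIP3 and BNIP3L are known for their induction by hypoxia. The protein level, the phosphorylation of these proteins and the rate of mitophagy were not measured; all values are RNA.

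The values are FPKM, reads or fragments scaled by exon length and by the depth of the sample, and a higher value means more RNA of that gene in the pool. Calculated back from the values, between 12290130 and 19285958 reads or fragments lay behind a sample. These depths are estimates and were not reported with the data. The members rested on 66 reads (FUNDC1 in a parental HepG2 sample) to 12731 reads (SQSTM1 in a resistant Huh7 sample), with the parental HepG2 samples the least deep. Within a group, samples correlated at 0.9643 to 0.9856 across genes. The hepatocyte-lineage markers ALB, AFP, APOA1, TTR, SERPINA1 and TF were above 0 in every sample, and their summed level was 6890 to 8380 FPKM in parental against 4180 to 4430 in resistant Huh7 cells, and 3920 to 4890 against 2660 to 2990 in HepG2 cells. Markers of leukocytes (4 genes) summed to 0.986 to 1.82 FPKM, of endothelium (3 genes) to 1.17 to 3.66 and of fibroblasts (4 genes) to 1.81 to 4.54. The lower sums in resistant cells came from AFP and ALB, while APOA1 and SERPINA1 had higher means in resistant than in parental cells of both lines (APOA1 175 against 92.4 FPKM in Huh7 and 249 against 130 in HepG2). These levels moved between the groups too, and their part in the values of the members was not tested. In such pooled RNA, fewer cells of a type and less RNA per cell cannot be told apart.

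Promoter sequence was available in the RefSeq-based table (GRCh38.p14) for 7 of the 9 members: BNIP3, FUNDC1, PHB2, OPTN, SQSTM1, TAX1BP1 and CALCOCO2. The 250 bases before each of their 12 listed start sites were searched on both strands for 3 motifs. These were ACGTG, one form of the core of the site of hypoxia-inducible factors, and CACGTG, the core of the E-box read by the TFEB and TFE3 family. The third was TGACNNNGC, the core of the antioxidant response element. The other form of the hypoxia core, GCGTG, was not searched. CACGTG read from either strand contains ACGTG, so the motifs are not independent. Over all 34943 windows of this length, ACGTG was found in 18.5%, CACGTG in 6.32% and TGACNNNGC in 10.9%. The windows of 2 members held a match, and these are shown because they are where the letters occur among the members. The sequences run 5′ to 3′ along the gene and stop where the first exon in GENCODE begins, and capitals mark the matches. The BNIP3 stretch is chr10:131982014-131982173, minus strand, and the CALCOCO2 stretch is chr17:48830785-48830987, plus strand.
BNIP3: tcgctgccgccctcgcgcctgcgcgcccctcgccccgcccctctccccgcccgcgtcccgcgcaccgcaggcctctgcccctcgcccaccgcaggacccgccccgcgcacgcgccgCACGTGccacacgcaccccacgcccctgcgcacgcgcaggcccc
CALCOCO2: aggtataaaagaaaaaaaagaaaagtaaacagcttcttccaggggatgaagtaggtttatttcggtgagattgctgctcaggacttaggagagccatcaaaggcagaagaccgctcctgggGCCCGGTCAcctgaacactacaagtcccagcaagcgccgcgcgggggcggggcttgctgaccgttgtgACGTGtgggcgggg
In BNIP3 the 6 bases CACGTG lie 129 to 134 bases before the RefSeq start. In CALCOCO2, ACGTG lies 57 to 61 bases before the start, and TGACNNNGC lies 121 to 129 bases before it, on the other strand. A match describes letters and not a site in use, and windows without a match say only that these letters are not in them.

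On GRCh38, in the coordinates of the files and of GENCODE release 29, PINK1 lies on chromosome 1 from 20633455 to 20651511, plus strand. The receptor BNIP3 is on chromosome 10 from 131966455 to 131982013, minus strand, BNIP3L on chromosome 8 from 26382898 to 26505636, plus strand, FUNDC1 on chromosome X from 44523639 to 44543001, minus strand, and PHB2 on chromosome 12 from 6965327 to 6970825, minus strand. Among the adaptors, OPTN lies on chromosome 10 from 13099449 to 13138308, SQSTM1 on chromosome 5 from 179806398 to 179838078, TAX1BP1 on chromosome 7 from 27739331 to 27844564 and CALCOCO2 on chromosome 17 from 48830988 to 48866522, all on the plus strand. Some exons are shared with other genes, and whether the reads were counted by strand is not given in the sources used here. Of the 4836 exon bases of PINK1, 1907 are also exon of the antisense gene PINK1-AS, and 1582 of the 7654 exon bases of SQSTM1 are also exon of MRNIP on the other strand, which was at 2.31 to 3.32 FPKM (group means). On the other strand too, MGAT4B shares 105 exon bases with SQSTM1, JAZF1 415 with TAX1BP1 and PNMA2 330 with BNIP3L. In resistant and parental Huh7 cells JAZF1 was at 2.07 against 3.25 FPKM and PNMA2 at 1.46 against 0.335. In HepG2 cells JAZF1 was at 0.422 against 0.284 and PNMA2 at 0.00674 against 0.0633 (group means). The part of the overlapping genes in the member values was not tested. GENCODE names 39 pseudogenes after BNIP3, 1 after PHB2 and 1 after SQSTM1. None of these is among the genes with deposited values. How reads that match them were assigned is not known, so the level of BNIP3 in particular is uncertain.

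Across the 4 groups, PHB2 and SQSTM1 were among the most abundant members and PINK1 was the least abundant. PHB2 had the highest group mean in each group, from 34.4 ± 3.8 FPKM (SD, n = 3) in parental Huh7 to 106 ± 12.5 in resistant Huh7 cells. In resistant Huh7 cells SQSTM1 came next at 76.9 ± 12.4 FPKM and its samples did not overlap with those of PHB2. BNIP3 (12.6 FPKM), TAX1BP1 (12.5) and FUNDC1 (11.9) followed there, each overlapping with the next, and then CALCOCO2 (4.45), OPTN (4.38) and BNIP3L (4.33), which also overlapped. PINK1 was last at 2.66 ± 0.412 FPKM, below every sample of BNIP3L. In parental Huh7 cells SQSTM1 (24.8 FPKM) and TAX1BP1 (23) overlapped, as did OPTN (7.66) and BNIP3L (6.8), and every other pair of neighbours stood apart.

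In HepG2 cells BNIP3 took the place that SQSTM1 held in Huh7 cells. In resistant HepG2 cells the order was PHB2 (62.9 FPKM), BNIP3 (49.1), SQSTM1 (18), BNIP3L (11.3), TAX1BP1 (10.1), FUNDC1 (5.47), CALCOCO2 (4.43), OPTN (3.46) and PINK1 (1.31). Of these neighbours only BNIP3L with TAX1BP1 and FUNDC1 with CALCOCO2 overlapped. In parental HepG2 cells PHB2, BNIP3 and SQSTM1 overlapped in a chain, and so did TAX1BP1, BNIP3L and OPTN. The order depends on the length by which reads are divided. The deposited values use all exons of a gene merged, which is 3.17 times the length of the principal transcript in TAX1BP1 and 1.17 times in FUNDC1. Divided by the principal transcript, SQSTM1 (197 FPKM) stood above PHB2 (174) in resistant Huh7 cells, with overlapping samples, and TAX1BP1 was first in parental Huh7 cells (72.8). Comparisons of 1 gene between samples do not depend on this length.

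**Figure D1:**
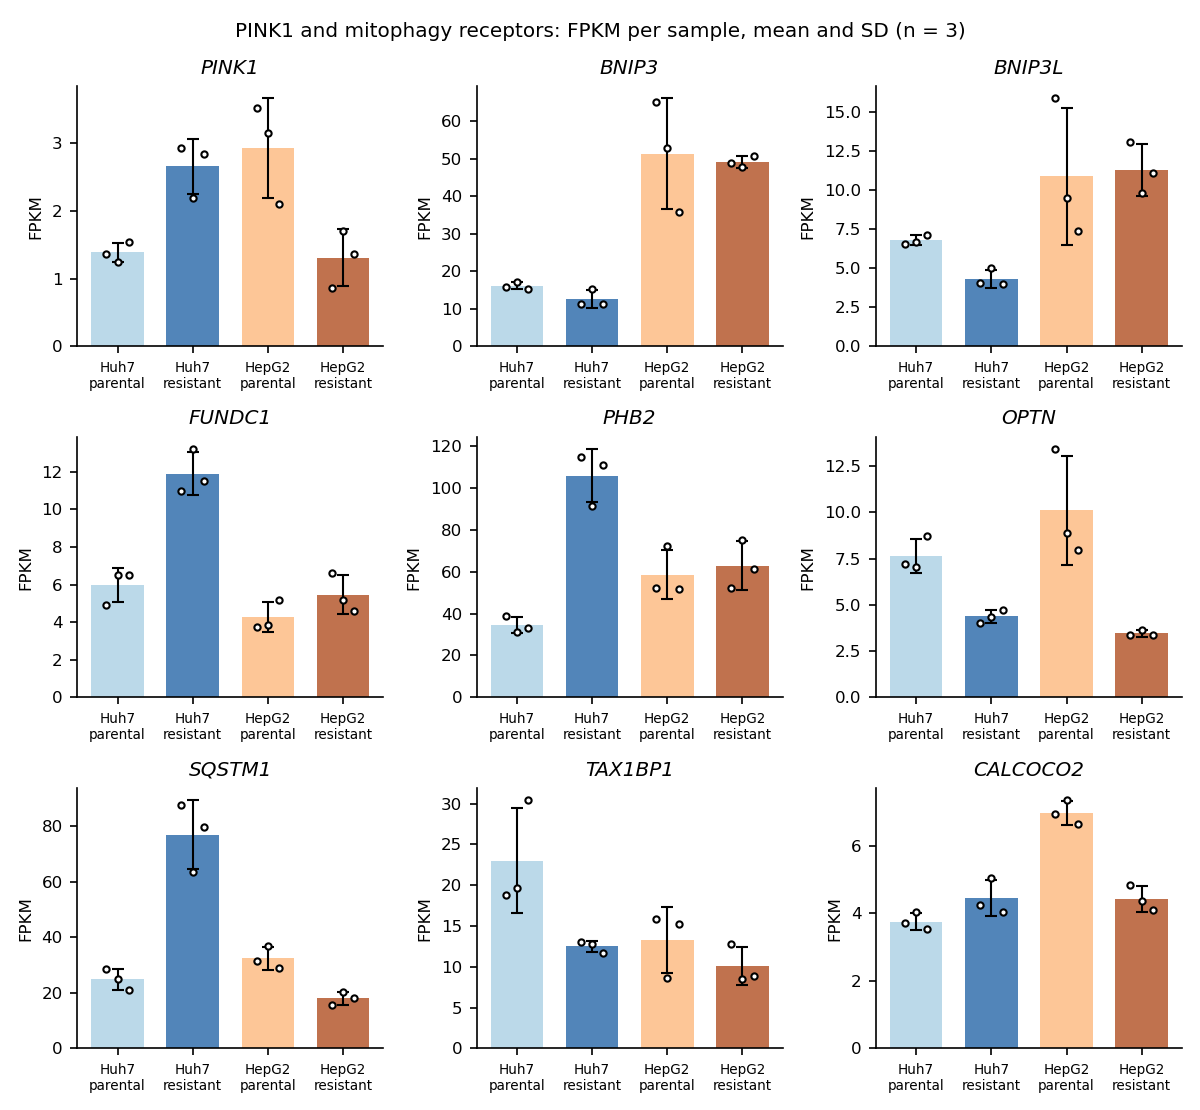
FPKM (vertical axes, from 0, a scale for each gene) of the 9 genes in parental and resistant Huh7 and HepG2 cells. Bars are means, whiskers SD and circles the 3 samples of a group. PHB2 and SQSTM1 stand highest in resistant Huh7 cells, PINK1 and CALCOCO2 differ in opposite directions in the lines, and OPTN is lower in resistant cells of both.

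PINK1 differed in opposite directions in the lines. In Huh7 cells it was at 2.94, 2.19 and 2.85 FPKM in the resistant samples and at 1.37, 1.25 and 1.54 in the parental samples. Every resistant sample was above every parental sample, and the ratio of the means was 1.92. In HepG2 cells the resistant samples were at 0.867, 1.7 and 1.37 FPKM and the parental samples at 3.53, 3.15 and 2.1, so that every resistant sample was below every parental one, by 2.23-fold in the means. On the log2(FPKM + 1) scale, which understates the change of low genes, the difference of resistant minus parental was 0.61 (SE 0.12) in Huh7 and −0.76 (SE 0.2) in HepG2. With the trend of the values with GC content taken off it was 0.23 (SE 0.12) and −0.83 (SE 0.17). The parental lines differed as well, with PINK1 2.11-fold higher in HepG2, and the resistant lines differed the other way, 2.03-fold higher in Huh7. These values rest on 71 to 270 reads a sample. A NONCODE gene on the opposite strand (chromosome 1, 20642657 to 20652193) was at 3.92 ± 0.149 FPKM in resistant against 2.57 ± 0.21 in parental Huh7 cells, and at 2.5 ± 0.208 against 2.86 ± 0.586 in HepG2 cells. Its part in the PINK1 values was not tested.

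The hypoxia-linked receptors BNIP3 and BNIP3L were lower in resistant Huh7 cells and hardly differed in HepG2 means. BNIP3 was at 11.2, 15.4 and 11.3 FPKM in resistant and 15.7, 17.1 and 15.4 in parental Huh7 samples. The groups stood apart only just, by less than the last printed digit. In HepG2 cells BNIP3 was at 48.8, 47.8 and 50.8 FPKM against 65.2, 52.8 and 35.7, and the parental samples spread on both sides of the resistant ones. The log2 difference was −0.34 (SE 0.14) in Huh7 and −0.02 (SE 0.21) in HepG2. BNIP3L was at 4.04, 5 and 3.97 FPKM in resistant and 6.55, 6.7 and 7.16 in parental Huh7 samples, without overlap (log2 difference −0.55, SE 0.11), a direction that turned with the GC trend taken off (0.18, SE 0.07). In HepG2 cells it was at 13.1, 9.83 and 11.1 FPKM against 15.9, 9.52 and 7.42, with overlap (0.1, SE 0.25). Both genes were higher in HepG2 than in Huh7 cells, BNIP3 3.19-fold in parental and 3.89-fold in resistant cells, BNIP3L 1.61-fold and 2.62-fold, without overlap of samples in any of these 4 comparisons. The ratio of BNIP3 to BNIP3L within a sample was 2.9 ± 0.159 in resistant Huh7 cells, 2.37 ± 0.206 in their parents, and 4.39 ± 0.591 and 4.82 ± 0.716 in HepG2 cells.

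FUNDC1 and PHB2, the other receptors, were higher in resistant Huh7 cells. FUNDC1, an outer membrane protein whose binding to ATG8-family proteins is set by phosphorylation, was at 11, 13.2 and 11.5 FPKM in resistant and 4.94, 6.49 and 6.5 in parental Huh7 samples. Resistant samples were all above parental samples, with a ratio of means of 1.99 and a log2 difference of 0.89 (SE 0.13). In HepG2 cells FUNDC1 was at 6.63, 5.16 and 4.61 FPKM against 3.76, 3.84 and 5.18, and the groups overlapped (0.3, SE 0.18). PHB2 is a scaffold of the inner membrane that meets autophagosomes once the outer membrane has ruptured. It was at 115, 91.4 and 111 FPKM in resistant and 38.7, 31.4 and 33.2 in parental Huh7 samples, a ratio of means of 3.07 (log2 difference 1.59, SE 0.13). In HepG2 cells it was at 52.1, 75.4 and 61.3 FPKM against 52.1, 72.3 and 51.8, with a log2 difference of 0.1 (SE 0.19) and overlapping groups. Of the summed FPKM of the 4 receptors, PHB2 held 78.4% ± 4.52 in resistant and 54.3% ± 4.04 in parental Huh7 cells, against 48.6% ± 5.71 and 47.3% ± 8.06 in HepG2 cells.

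SQSTM1 showed the widest contrast between the lines among the adaptors. This adaptor gathers ubiquitinated cargo into condensates, is itself degraded by autophagy, and is a known target of the transcription factor NFE2L2. It was at 87.7, 63.4 and 79.6 FPKM in resistant and 28.6, 24.8 and 20.9 in parental Huh7 samples, a ratio of means of 3.1 (log2 difference 1.59, SE 0.16). In HepG2 cells it was at 15.6, 20.4 and 18.2 FPKM in resistant and 31.5, 37 and 28.8 in parental samples, 1.8-fold lower in the resistant means (log2 difference −0.81, SE 0.16). No sample of one group overlapped with the other in either line. Parental cells of the lines differed little in SQSTM1 (1.31-fold higher in HepG2), and resistant cells differed by 4.26-fold, with Huh7 the higher. MRNIP, whose exons overlap those of SQSTM1, was at 3.32 against 2.9 FPKM in resistant and parental Huh7 cells and at 2.31 against 2.4 in HepG2 cells (group means). MGAT4B, which shares fewer exon bases with SQSTM1, was at 25.5 against 15.4 FPKM in Huh7 and at 22.8 against 19.9 in HepG2 cells.

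OPTN was lower in resistant cells of both lines. This adaptor is phosphorylated by the kinase TBK1 during mitophagy. It was at 4.04, 4.35 and 4.74 FPKM in resistant and 7.21, 7.05 and 8.72 in parental Huh7 samples, 1.75-fold lower (log2 difference −0.68, SE 0.12). In HepG2 cells it was at 3.38, 3.66 and 3.35 FPKM in resistant and 13.4, 8.88 and 7.98 in parental samples, 2.92-fold lower (−1.28, SE 0.19). The resistant samples were below all parental samples in each line. The parental HepG2 samples spread the most, and without replicate 1, the highest of them, the HepG2 difference was −1.08.

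TAX1BP1 was lower in resistant Huh7 cells and CALCOCO2 in resistant HepG2 cells. TAX1BP1, which shares a cargo-binding role with SQSTM1 and also recruits autophagy initiation factors, was at 13, 12.8 and 11.7 FPKM in resistant and 18.8, 19.7 and 30.4 in parental Huh7 samples, without overlap (log2 difference −0.8, SE 0.17). Parental replicate 3 stood well above the other two, and without it the difference was −0.59. In HepG2 cells TAX1BP1 was at 12.8, 8.5 and 8.91 FPKM against 15.9, 8.6 and 15.3, with overlap (−0.34, SE 0.25). CALCOCO2 is also a receptor for bacteria coated with ubiquitin. It was at 4.26, 5.05 and 4.03 FPKM in resistant and 3.71, 4.03 and 3.53 in parental Huh7 samples. The groups touched at 4.03 and were apart only beyond the printed digits (0.19, SE 0.11). In HepG2 cells it was at 4.85, 4.36 and 4.09 FPKM in resistant and 6.95, 7.35 and 6.65 in parental samples, clearly apart, 1.58-fold lower in resistant cells (−0.56, SE 0.13).

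The make-up of the adaptors differed between resistant and parental Huh7 cells. SQSTM1 was 80.5%, 74.1% and 79.5% of the summed FPKM of the 4 adaptors in the resistant samples and 49%, 44.6% and 32.9% in the parental samples. TAX1BP1 held a smaller share, with 12.8% ± 1.79 beside 38.5% ± 8.22 in the parents, and so did OPTN, with 4.51% ± 0.715 beside 12.9% ± 0.713. In HepG2 cells SQSTM1 held 50.2% ± 6.66 in resistant and 51.8% ± 7.08 in parental cells, within the spread of the samples, while OPTN held 9.62% ± 0.355 and 15.9% ± 3.41. With the length of the principal transcript the SQSTM1 shares were 77.6% and 41.1% in Huh7 and 49.7% and 53.5% in HepG2 cells.

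**Figure D2:**
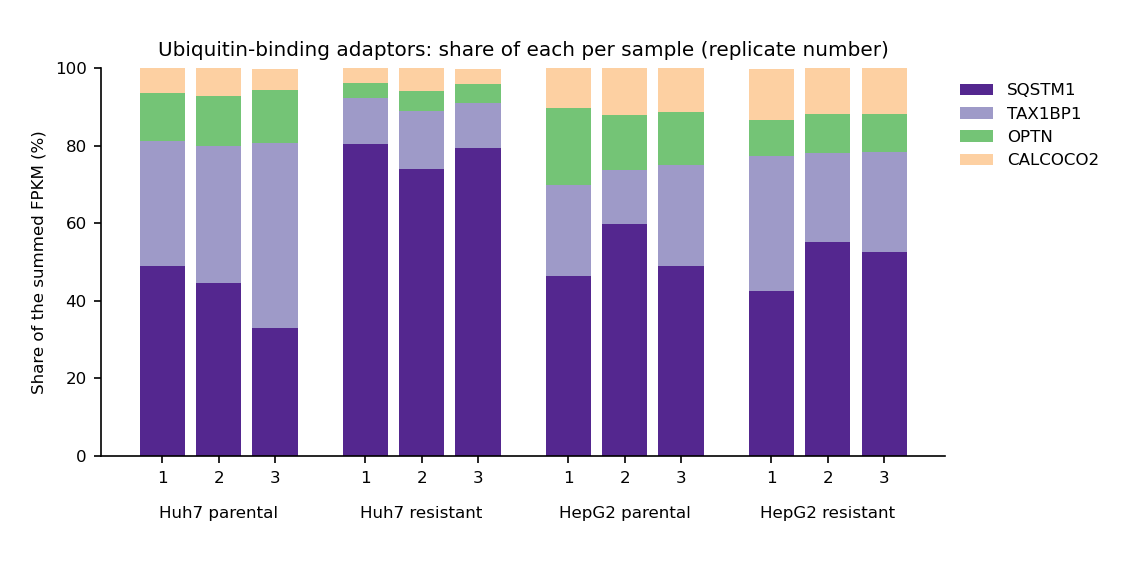
Share (%) of the summed FPKM of SQSTM1, TAX1BP1, OPTN and CALCOCO2 held by each, in every sample (replicate numbers under the bars, groups named below). SQSTM1 takes 74.1% to 80.5% in the resistant Huh7 samples and 32.9% to 59.8% in the other 9.

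Counted over the members, the resistant samples did not overlap with the parental samples in 9 of 9 genes in Huh7 (5 above, 4 below), where 74.5% of the 12554 genes tested did not overlap (35.2% above, 39.2% below). In HepG2 they did not overlap in 4 of 9 (PINK1, OPTN, SQSTM1 and CALCOCO2, all below), where the share was 40.4% of 11762 genes (24.9% above, 15.5% below). PHB2 and SQSTM1 in Huh7 and OPTN in HepG2 passed the thresholds used for all genes (adjusted p under 0.05 by limma and a log2 difference beyond 1), which 22.6% of the genes tested passed in Huh7 (8.59% higher, 14.0% lower) and 6.27% in HepG2 (3.29% higher, 2.98% lower). As the members were chosen with these contrasts known, nothing is read from these counts. The median difference of the 9 members was 0.19 in Huh7 and −0.34 in HepG2, beside −0.04 and 0.12 over all genes tested.

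**Figure D3:**
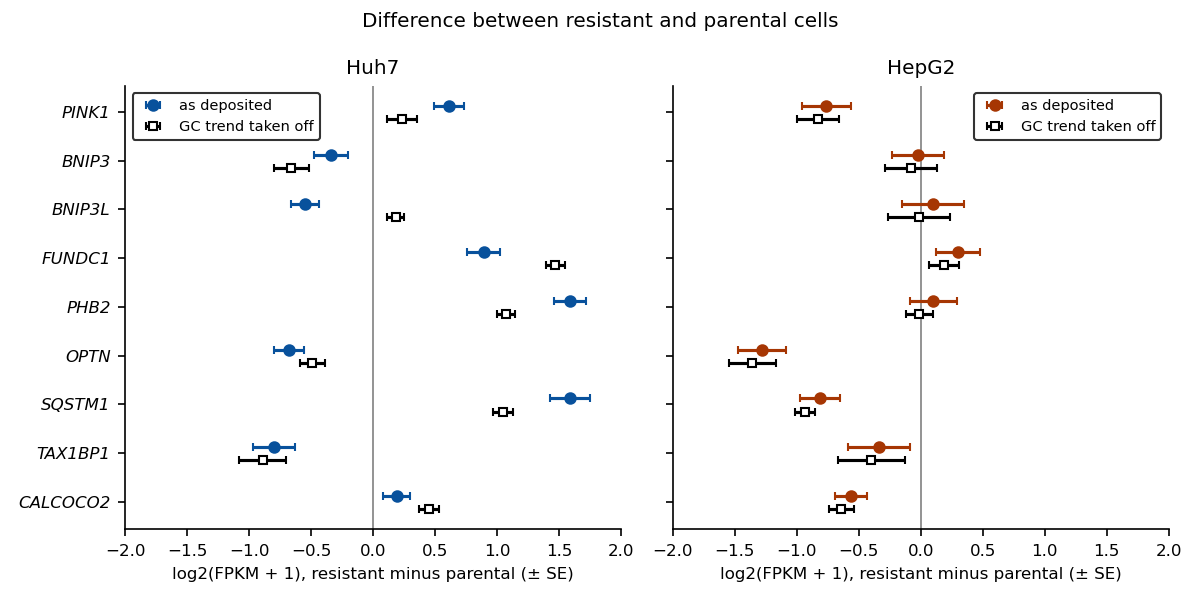
Difference of resistant minus parental cells on the log2(FPKM + 1) scale (horizontal axes, whiskers SE) for the 9 genes in Huh7 and HepG2 cells. Filled circles are the deposited values and open squares those freed of the GC trend. In Huh7 the trend moves most members and turns BNIP3L from −0.55 to 0.18, and in HepG2 it moves each by 0.12 or less.

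In Huh7 cells the difference between resistant and parental samples ran with the GC content of the genes, and the members spread over that range. When all genes tested were put in order of GC content and split into 10 equal groups, the median log2 difference went from −0.88 in the lowest to 0.48 in the highest, with a maximum of 0.55. In HepG2 cells the medians stayed between 0.06 and 0.26. PHB2 (56.9% GC) and SQSTM1 (58%) fall into a group with a median of 0.55 and an upper quartile of 0.93 in Huh7, and both lay above it at 1.59. FUNDC1 (40.7% GC) lay at 0.89 in a group with a median of −0.5, and BNIP3L (38.9% GC) at −0.55 in a group with a median of −0.74. With the trend of each library taken off, the Huh7 differences were 1.05 for SQSTM1, 1.07 for PHB2 and 1.47 for FUNDC1, and 0.23 for PINK1. BNIP3 then stood at −0.66, OPTN at −0.49, TAX1BP1 at −0.89 and CALCOCO2 at 0.45. BNIP3L changed sign, to 0.18. In HepG2 cells the values were −0.83 for PINK1, −0.93 for SQSTM1, −1.36 for OPTN and −0.64 for CALCOCO2. The signs for PINK1, SQSTM1 and CALCOCO2 were opposite in the lines with and without the trend. In Huh7 the difference was not large beside its SE for PINK1 without the trend (0.23, SE 0.12). The same held for CALCOCO2 with the trend (0.19, SE 0.11). What gave rise to the trend was not tested.

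**Figure D4:**
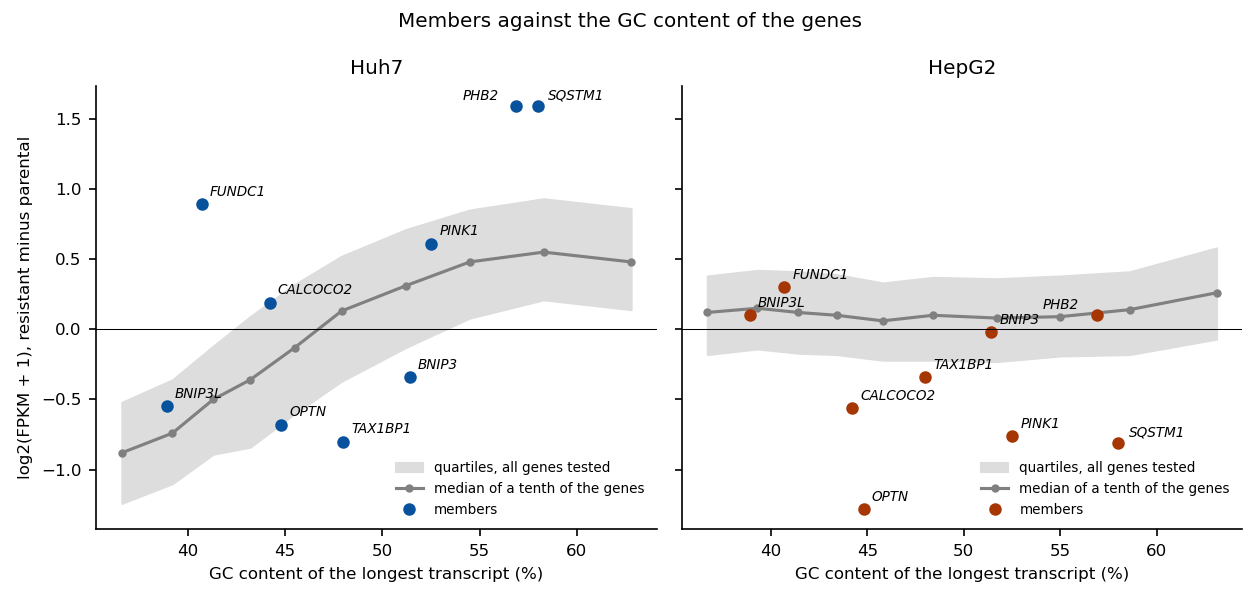
Log2(FPKM + 1) of resistant minus parental cells (vertical axis) against the GC content of the longest transcript (%, horizontal axis) in Huh7 and HepG2 cells. Grey line and band are the median and quartiles of 10 equal groups of the genes tested, and coloured points the members. In Huh7 cells PHB2, SQSTM1 and FUNDC1 lie well above the band and BNIP3, OPTN and TAX1BP1 below it, and in HepG2 cells OPTN, SQSTM1, PINK1 and CALCOCO2 lie furthest below.

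For 8 of the members, the genes whose centred log2(FPKM + 1) values over the 12 samples lay closest were sought among 10687 other genes tested in both lines, by the root mean square difference. The closest were A2M to BNIP3 (0.183), RAD51B to BNIP3L (0.147), STARD3NL to FUNDC1 (0.168) and SMYD5 to PHB2 (0.0987). The closest to OPTN was RNF128 (0.156), to SQSTM1 NOCT (0.135), to TAX1BP1 CKAP2L (0.131) and to CALCOCO2 RHBDD1 (0.0769). The second closest were STK39, WASHC3, CXorf38, CD151, YPEL5, RPL35, MBNL1 and H3F3B, in the same order of members. Genes with a small spread come close easily: CALCOCO2 varied by 0.291 about its own mean and BNIP3 by 0.899. Among the members, PINK1 and CALCOCO2 were the closest pair (0.331), followed by BNIP3 and BNIP3L (0.453), and BNIP3 and SQSTM1 were the furthest apart (1.5).

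Other genes of mitophagy and autophagy were tested from a list of 115 genes in 8 role groups, 114 of which are in the tables. In Huh7 cells 106 were tested, 6 rose and 10 fell in resistant cells, and 90 did not pass the thresholds. This is 15.1%, beside 22.6% of all genes tested. In HepG2 cells 105 were tested, 1 rose and 6 fell (6.67%, beside 6.27%). PPARGC1A, which fell in HepG2, was too low in Huh7 to be tested there. The median difference of the list was −0.03 in Huh7 and 0 in HepG2. In Huh7 2 of the 16 (TOMM40 and PGAM5) and in HepG2 6 of the 7 passed with the GC trend taken off. The adjusted p-values below are limma's, with Benjamini-Hochberg adjustment over all genes tested.

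Among 19 genes of PINK1 processing, import and its substrates, 2 rose and 1 fell in Huh7. TOMM40, the channel of the outer membrane translocase through which PINK1 enters, was at 31.5, 23.4 and 31 FPKM in resistant and 10.6, 6.66 and 7.18 in parental Huh7 samples (log2 difference 1.71, SE 0.18, adjusted p = 0.000104). PGAM5, a mitochondrial phosphatase that acts on FUNDC1, rose by 1.49 (adjusted p = 0.000116). CISD1, an outer membrane iron-sulphur protein, fell by 1.17 (adjusted p = 0.000326). None of the 19 passed in HepG2, where 2 had an adjusted p under 0.05. Of the 18 ligases, deubiquitinases and kinases, 3 rose (MUL1, AMBRA1 and SRC) and 4 fell (FBXL4, USP15, TBK1 and USP8) in Huh7, and none passed in HepG2. FBXL4, a ligase subunit that limits the amounts of BNIP3 and BNIP3L, was at 2.96, 3.11 and 2.57 FPKM against 9.61, 12.8 and 12.2 (−1.69, SE 0.13, adjusted p = 3.06e-05). TBK1, the kinase of OPTN, was at 4.96, 4.12 and 3.46 FPKM against 9.47, 11.4 and 13.4 in Huh7 (−1.26, SE 0.16, adjusted p = 0.000187). With the GC trend taken off, FBXL4 stood at −0.81 and TBK1 at −0.56, no longer beyond the threshold on the difference. CISD1 then stood at −0.22 with an adjusted p of 0.057 by limma.

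Of 11 to 12 other receptors and adaptors tested, NIPSNAP2, a matrix protein that is exposed on damaged mitochondria and binds adaptors, fell in Huh7 from 22.1, 27.3 and 24.1 to 9, 10.7 and 8.93 FPKM (−1.27, SE 0.12, adjusted p = 6.32e-05). With the GC trend taken off NIPSNAP2 stood at −0.67, no longer beyond the threshold on the difference. In HepG2 ATAD3A, an inner membrane ATPase, was at 5.95, 14.7 and 12.2 FPKM in resistant and 3.13, 4.08 and 6.09 in parental samples (1.09, SE 0.32, adjusted p = 0.0452). These groups overlap. ATAD3A passed in 7 of 15 alternatives, with an adjusted p of 0.00574 to 0.144 over them. It did not pass without the filter on low values (adjusted p = 0.134), nor without resistant replicate 2 or 3 or without parental replicate 1 or 2. ATAD3A was higher in resistant Huh7 cells too, with every resistant sample above every parental sample. That difference was under the threshold (0.85, SE 0.15, adjusted p = 0.00118), and it was 0.39 with the GC trend taken off. The HepG2 minus the Huh7 difference was 0.24 (SE 0.39, adjusted p = 0.619 by limma).

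In the ATG8 family and its conjugation, 2 genes fell in HepG2 cells. MAP1LC3B, the main LC3 gene, was at 38.2, 39.1 and 39.6 FPKM in resistant and 99.2, 128 and 125 in parental HepG2 samples (−1.56, SE 0.15, adjusted p = 0.000551). GABARAPL1 was at 0.997, 0.95 and 0.74 FPKM against 6.75, 4.42 and 3.31 (−1.58, SE 0.22, adjusted p = 0.00256). The 3 resistant samples were under 1 FPKM, so GABARAPL1 was tested in HepG2 only through the parental group in which it is high, and it was not tested when a parental sample was left out. Without the filter on low values its adjusted p was 0.0196. MAP1LC3B passed in every alternative. Reads of MAP1LC3B and of its near-identical copy MAP1LC3B2 may have been divided between them, so their levels are uncertain. In Huh7 the protease gene ATG4C fell (−1.05, SE 0.21, adjusted p = 0.0021), and it did not pass without resistant replicate 3 or parental replicate 2 or 3. With the GC trend taken off it stood at −0.09 with an adjusted p of 0.57.

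Of the genes of autophagy initiation and membrane supply, ATG9A, a lipid scramblase of the vesicles that seed autophagosomes, rose in Huh7 from 15.6, 15.6 and 11.8 to 33.9, 30 and 30 FPKM (1.08, SE 0.13, adjusted p = 0.000167). That call was lost without parental replicate 3 and with the GC trend taken off (0.54). WIPI1, which binds the phosphoinositide of the nascent membrane, fell in HepG2 from 40.6, 35.2 and 21.1 to 12, 15.3 and 14.4 FPKM (−1.12, SE 0.24, adjusted p = 0.0146). Its adjusted p was 0.0519 without parental replicate 1 and 0.0541 without the filter on low values. Of 7 fission and fusion genes tested, DNM1L, the dynamin of mitochondrial fission, and TBC1D15 fell in Huh7. TBC1D15 (−1.04) did not pass without resistant replicate 3 (−0.96) or parental replicate 3 (−0.93), and stood at −0.15 with the GC trend taken off. DNM1L was at 9.49, 10.3 and 8.91 FPKM against 24, 26.7 and 30.9 (−1.41, SE 0.12, adjusted p = 4.32e-05). It stood at −0.86 with the GC trend taken off, no longer beyond the threshold on the difference. In HepG2 it was at 20.3, 12.8 and 14.6 FPKM against 9.51, 7.39 and 11.1 (0.7, SE 0.21, adjusted p = 0.0457), under the threshold on the difference. None of 10 genes of autophagosome and lysosome fusion passed in either line, with 7 at an adjusted p under 0.05 in Huh7 and 1 in HepG2.

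Among the transcription regulators, HIF1A fell in Huh7 and FOXO3, TFE3 and PPARGC1A in HepG2. HIF1A, the oxygen-regulated factor known to act on BNIP3 and BNIP3L, was at 20.8, 19 and 18.6 FPKM in resistant and 48.7, 57 and 65.7 in parental Huh7 samples (−1.5, SE 0.13, adjusted p = 4.34e-05). It stood at −0.61 with the GC trend taken off. FOXO3 was at 5.56, 5.55 and 5.36 FPKM against 19.4, 15.6 and 22.6 in HepG2 (−1.62, SE 0.16, adjusted p = 0.000709) and passed in every alternative. In Huh7 FOXO3 was also lower without overlap, at 9.66 against 13.1 FPKM (group means). That difference was under the threshold (−0.4, SE 0.13, adjusted p = 0.0246 by limma). TFE3, which drives lysosome and autophagy genes, was at 8.19, 11.6 and 9.61 FPKM against 18.4, 24.3 and 20.4 (−1.03, SE 0.17, adjusted p = 0.00557), and PPARGC1A, a coactivator of mitochondrial genes, differed by −1.08 (adjusted p = 0.0111). In Huh7 PPARGC1A was at 0.0948 FPKM in resistant and 0.829 in parental cells (group means), too low to be tested. In HepG2 TFE3 was also lost without resistant replicate 1 and PPARGC1A without resistant replicate 2. Without parental replicate 1 of HepG2 only 3 of the listed genes passed in that line (MAP1LC3B, FOXO3 and TFE3), and without replicate 2 only 4 (MAP1LC3B, FOXO3, WIPI1 and PPARGC1A). NFE2L2, the regulator of the antioxidant response that acts on SQSTM1, was at 73.3 FPKM in resistant Huh7 cells and at 107 in their parents (−0.53, SE 0.12, adjusted p = 0.00372), under the threshold on the difference, and at 70.5 and 89 FPKM in HepG2 cells (−0.32, SE 0.23, adjusted p = 0.344).

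**Figure D5:**
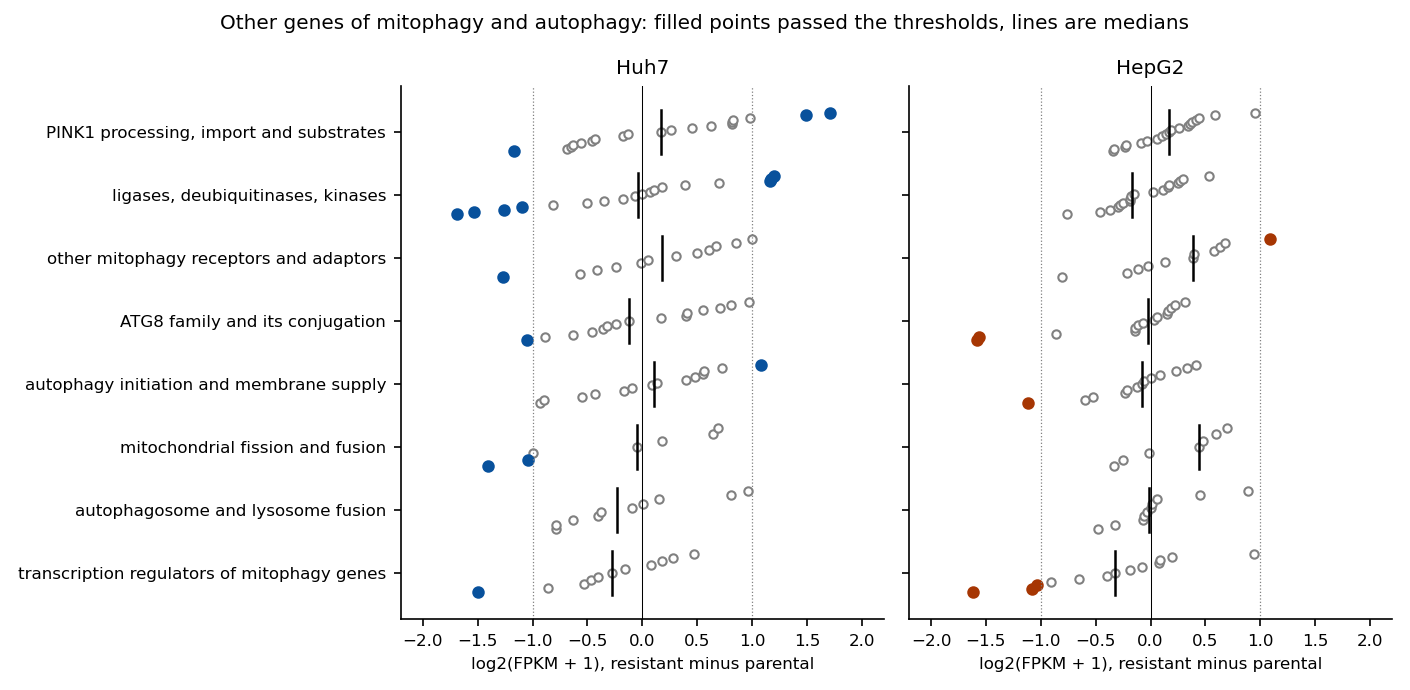
Log2(FPKM + 1) of resistant minus parental cells (horizontal axes) for the listed genes tested, by role group, in Huh7 and HepG2 cells. Filled points passed both thresholds (16 in Huh7, 7 in HepG2), open points did not, dotted lines mark a difference of 1 in either direction and vertical bars the median of a group.

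Whether a change differed between the lines was tested for these listed genes with the interaction of line and resistance in all 12 samples. Of 103 genes tested, 32 passed (31.1%, beside 29.1% of 10688 genes), 15 with a higher and 17 with a lower difference in HepG2 than in Huh7. The largest were GABARAPL1 (−2.29, SE 0.25, adjusted p = 2.66e-05), DNM1L (2.12, SE 0.25, adjusted p = 4.13e-05) and USP15, a deubiquitinase that opposes mitophagy (2.07, SE 0.28, adjusted p = 0.000107). GABARAPL1, tested through its parental HepG2 samples (adjusted p = 0.000133 by limma without the filter), was higher in resistant than in parental Huh7 cells (9.09 against 5.14 FPKM) and lower in resistant HepG2 cells (0.896 against 4.83). BCL2L13, a receptor of the outer membrane, was at 17.8 against 12.3 FPKM in Huh7 and 3.02 against 6.08 in HepG2 cells (−1.31, SE 0.16, adjusted p = 5.14e-05), with no overlap of the groups in either line. Once the GC trend had been removed 16 genes passed, 13 of them among these 32, and median-ratio scaling, which moved the median over all genes from 0.11 to −0.02, gave 11 higher and 21 lower.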

How the data were processed

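RNA of 12 samples, 3 in each of 4 groups set from the sample titles, had been sequenced from NEBNext Ultra libraries of total RNA. The labels name an RNeasy kit and the study's methods TRIzol. Per the submitters' processing notes, bcl2fastq and GRCh38 were used; aligner and counting tool are not given in the sources used here. The authors deposited one table per sample without a stated unit. The deposited values are FPKM or RPKM, which cannot be told apart: multiplied by the merged exon length of GENCODE release 29 and the depth, the 108 member values come out as whole reads to within 0.008. The depth of each sample was itself estimated from single-exon genes, as the number that turns their values into whole reads. Reads are not independent molecules, so their numbers speak of counting error only. Columns of 71462 NONCODE genes were not tested.

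Tables were read with Python 3.11.15 and pandas 2.3.3. A gene was kept for a line when 3 or more of its 6 samples reached 1 FPKM, and fits were made with limma 3.58.1 (R 4.3.3) on log2(FPKM + 1) with a trend on mean expression, two-sided, with Benjamini-Hochberg adjustment over all genes tested. Thresholds were an adjusted p under 0.05 and a log2 difference beyond 1. The GC trend taken off was a lowess curve (span 0.3), drawn per sample, of its deviation from the line average against GC content. The fit was tested on simulated data. Alternatives were a pseudocount of 0.1, no filter, upper-quartile and median-ratio scaling, no variance trend, all 12 samples in one fit, a replicate block, limma-voom on reads calculated back, removal of the GC trend, and fits without 1 sample. The length of the principal transcript was added after the data had been seen.

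The members and the lists were chosen with earlier results of these data known. Genes named are the 9 members, the listed gene with the largest change of each role group in each line, those that differed between the lines and the 2 genes closest to each member; one result that this rule selects is not reported here. The other listed genes that passed within a line, the genes overlapping a member, MFF and NFE2L2 were named after their values were seen.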

Additional observations from a re-analysis of the deposited data

Results flagged for a closer look

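PINK1, SQSTM1 and CALCOCO2 stood out because every resistant sample was above every parental sample in Huh7 and below every one in HepG2. Over all genes tested, 35.2% stood above without overlap in Huh7 and 15.5% below in HepG2. These are shares in each line by itself. The share of genes with both traits was not determined, so nothing is read from the joint pattern. The CALCOCO2 groups touched at 4.03 FPKM in Huh7 and were apart only beyond the printed digits. The log2 differences were 0.61 and −0.76 for PINK1, 1.59 and −0.81 for SQSTM1 and 0.19 and −0.56 for CALCOCO2, in this order of lines. With the GC trend taken off they were 0.23 and −0.83 for PINK1, 1.05 and −0.93 for SQSTM1 and 0.45 and −0.64 for CALCOCO2. In Huh7 the SE was 0.12 for the PINK1 value of 0.23 and 0.11 for the CALCOCO2 value of 0.19. The difference between the lines was not tested for these genes, because they were chosen with these values known.

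For 32 listed genes the change differed between the lines by limma's interaction test. The values are the HepG2 minus the Huh7 log2 difference, and a positive value means a higher one in HepG2. Among genes of PINK1 processing, import and substrates they were 1.13 for PARL, −1.13 for PGAM5, −1.32 for TOMM40, 1.05 for MFN1 and −1.18 for VDAC2. Among ligases, deubiquitinases and kinases they were −1.09 for MUL1, 1.37 for USP8, 2.07 for USP15, 1.43 for FBXL4, −1.14 for AMBRA1, 1.56 for TBK1 and −1.92 for SRC. Among other receptors and adaptors they were −1.31 for BCL2L13 and 1.85 for NIPSNAP2.

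In the ATG8 group the values were −1.43 for MAP1LC3B, −1.03 for MAP1LC3B2, −2.29 for GABARAPL1, 1.08 for ATG4C and −1.04 for ATG16L1. In autophagy initiation they were 1.25 for PIK3C3, −1.01 for ATG2A and −1.69 for ATG9A. The fission and fusion genes gave 2.12 for DNM1L, −1.02 for MIEF1, 1.44 for OPA1 and 1.03 for TBC1D15. The fusion genes of the autophagosome gave −1.13 for VAMP8, 1.08 for LAMP1 and 1.68 for VPS41, and the regulators 1.58 for HIF1A, −1.23 for FOXO3 and −1.21 for TFE3. PARL, MAP1LC3B2 and GABARAPL1 reached 1 FPKM in HepG2 and VAMP8 in Huh7 in 1 of the groups only, so these 4 were tested through the group in which they are high. Without the filter their adjusted p-values by limma were 0.00137, 0.00208, 0.000133 and 0.0368. Of the 32 genes, 13 passed with the GC trend taken off, 20 whichever sample was left out and 11 in every alternative, where only fits in which a gene was tested are counted.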

How the results depend on the processing

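Of the listed genes, 16 passed in Huh7, 7 in HepG2 and 32 for the difference between the lines. In Huh7 the count was 26 (11 higher, 15 lower) with a pseudocount of 0.1 and 26 with limma-voom, and 3 (TOMM40, PGAM5 and MFF, all higher) with the GC trend taken off. In HepG2 it was 11 (3 higher, 8 lower) with limma-voom. The difference gave 16 with the GC trend taken off. Leaving out 1 sample gave 13 to 22 in Huh7, 3 to 8 in HepG2 (3 without parental replicate 1, 4 without parental replicate 2) and 21 to 35 for the difference (21 without HepG2 parental replicate 2). The causes were not tested. Replicate numbers were not used to pair the samples. Correlations of same-numbered samples were −0.228 to 0.0843 in Huh7 and −0.011 to 0.437 in HepG2. Those of differently numbered samples were −0.335 to 0.282 in Huh7 and −0.423 to 0.21 in HepG2, so pairing in HepG2 is not settled. With the replicate block 16, 7 and 32 genes passed. The single HepG2 call of a higher gene was absent with no filter, upper-quartile scaling, median-ratio scaling and the GC trend taken off (0 higher in each). Among the 9 members, BNIP3L in Huh7 (−0.55) was at 0.18 with the GC trend taken off, and in HepG2 BNIP3, BNIP3L and PHB2 changed sign in 3, 4 and 3 of 15 alternatives. Of the rest, none changed sign in these alternatives, but sizes changed. PINK1 ran from 0.23 (GC trend taken off) to 0.93 (limma-voom) in Huh7, and from −0.62 to −1.16 (limma-voom) in HepG2. FUNDC1 in Huh7 ran from 0.78 to 1.47. PINK1 in HepG2 and FUNDC1 in Huh7 thus lay beyond a log2 difference of 1 in some alternatives only. Depth limits FUNDC1 and PINK1 most.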
